A study of Mus musculus with 10 samples.

Results

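The RNA levels of 10 genes for S100 calcium-binding proteins were followed in keratinocytes and CD8+ T cells that were cultured apart or together. The genes were taken by name, S100a1, S100a3, S100a4, S100a6, S100a8, S100a9, S100a10, S100a11, S100a13, and S100a14, and each was listed in all 10 libraries among 25814 genes. The 5 groups held 2 libraries each. Of these, 2 groups were murine keratinocytes, either kept alone or collected from a co-culture with T cells (co-cultured keratinocytes). The T cells of the other 3 groups all received αCD3/CD28 for 1 d. The first was collected then (activated T cells), the second spent 1 d more in keratinocyte medium (T cells in mixed medium), and the third spent that day with keratinocytes (co-cultured T cells). The paper describes primary keratinocytes of newborn animals and of adult tail skin. Which source gave the libraries is stated neither there nor in the labels. The keratinocytes were kept in serum-free low-calcium medium, and the T cells were taken from spleens with CD8 microbeads. No allele or agent beyond these is given in the labels. After co-culture the T cells were washed off and both cell types were collected separately, so a library of one cell type can hold RNA of the other. The methods of the study name C57/B6 mice. The labels give 1 d for the co-culture of the T cells whereas the design text of the series gives 1 h. The paper describes the medium of the T cells without keratinocytes as a mix of keratinocyte and X-vivo medium. All co-cultures were held in this mix too, and the paper ascribes to X-vivo medium, which contains calcium, a strong effect on keratinocyte differentiation. Whether keratinocytes alone received the mix is not stated. In the comparison of the 2 keratinocyte groups, T cells and medium therefore cannot be told apart.

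S100 proteins are small proteins that bind calcium through EF-hand motifs and then attach to other proteins. S100A8 and S100A9 form the heterodimer calprotectin, which is abundant in neutrophils, is made by keratinocytes under stress, and can act outside cells on TLR4 and on the receptor RAGE. S100A10 forms a complex with annexin A2, and S100A11 binds annexin A1 at membranes. In mammals most S100 genes lie close to each other, next to the genes for the proteins of the cornified envelope of the skin.

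All 10 genes mapped to chromosome 3 of GRCm38. S100a1, S100a13, S100a14, S100a3, S100a4, S100a6, S100a8, and S100a9 spanned 185 kb at chr3:90511034-90695721, and S100a11 and S100a10 spanned 44.2 kb at chr3:93520488-93564643. The gap between the blocks held 65 genes. S100a1, on the minus strand, and S100a13, on the plus strand, were arranged head to head with 42 bases between the ends of their deposited gene models. The stretch between them and the 250 bases before the RefSeq starts of S100a8 and S100a9 are shown. The levels of S100a8 and S100a9 moved side by side between the groups. Those of S100a1 and S100a13 were both lower in activated T cells than in the other T cells, as were those of S100a10 in the other block. Over all 10 libraries the profiles of S100a1 and S100a13 were close to uncorrelated (Pearson r = 0.030). All 3 stretches were taken from the RefSeq promoter table (GRCm38.p6), and the 2 longer ones are written 5′ to 3′ on the strand of the gene. In the S100a8 stretch (chr3:90668821-90669070, plus strand) the capitals mark the letters TATAAA, which begin at position -30 from the start, and in the S100a9 stretch (chr3:90695722-90695971, minus strand) they mark the one match of the CEBP motif TTNNGCAA, found on the opposite strand at position -236. The stretch between S100a1 and S100a13 (chr3:90514393-90514434) is written on the plus strand and carries no capitals.
S100a8: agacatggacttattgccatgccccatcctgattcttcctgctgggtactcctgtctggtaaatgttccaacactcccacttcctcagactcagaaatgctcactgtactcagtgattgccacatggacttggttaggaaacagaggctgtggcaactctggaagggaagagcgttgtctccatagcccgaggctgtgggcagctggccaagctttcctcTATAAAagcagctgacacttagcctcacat
S100a9: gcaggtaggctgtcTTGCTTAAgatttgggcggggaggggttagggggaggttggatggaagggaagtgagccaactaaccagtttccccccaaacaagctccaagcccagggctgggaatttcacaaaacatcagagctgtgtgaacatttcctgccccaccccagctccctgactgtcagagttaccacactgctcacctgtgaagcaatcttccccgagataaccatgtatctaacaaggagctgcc
S100a1 to S100a13: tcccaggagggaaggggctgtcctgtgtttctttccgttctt

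The letters TATAAA were found in the 250 bases before the start in 7.59% of 32851 RefSeq promoters. The deposited model of S100a8 starts at base 90668978 and thus inside the stretch shown for it. Motifs for AP-1 (TGANTCA, in 7.81% of all windows), GAS elements (TTCNNNGAA, 8.30%), CEBP (TTNNGCAA, 10.8%), and NF-kappaB (GGGNNTTCC, 5.82%) were searched on both strands in windows of 300 bases, 250 before to 50 after the start. Promoter windows were given for 8 of the 10 genes, with 11 windows in all, and for S100a10 and S100a14 none was used. Matches were found for S100a9 (CEBP) and for S100a11, whose window held the AP-1 letters at positions -136 and -38. Matches of letters describe the sequence only.

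The depth was 12864931 to 18019609 exon reads per library, of which 78.2 to 87.2% were mapped uniquely. Levels are given as RPKM, exon reads scaled to exon length and to the mapped reads of a library. A gene with 1 kb of exons and 3 reads would reach 0.158 to 0.212 RPKM at this depth, a limit that covers counting error only. The defining keratinocyte genes Krt5, Krt14, and Trp63 were at 2837 to 4556, 7239.8 to 11836, and 7.46 to 14.1 RPKM in the 4 keratinocyte libraries, and the T cell gene Cd8a was at 110.0 to 334 RPKM in the T cells. Markers of the other cell type were also measured. Cd3e reached 14.4 and 56.8 RPKM in keratinocytes alone and 19.4 and 88.6 RPKM in co-cultured keratinocytes, with 1.16 RPKM or less of Cd8a, and Krt14 reached 61.6 and 16.8 RPKM in co-cultured T cells against 0.350 to 1.06 RPKM in the other T cell libraries. The methods speak of repeated co-cultures but do not tie them to these libraries, so p-values measure the spread between these libraries, which may be technical. The first library of each group has a number of 1 to 8 in its name and the second one of 12 to 16, and the values of first and second libraries given below are thus also values within these series.

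Keratinocytes held the larger amounts of S100 RNA. The 10 genes summed to 7511 to 10198 RPKM in keratinocytes, which was 1.40 to 2.23% of the summed RPKM of all genes, and to 364 to 1755 RPKM in T cells, or 0.0761 to 0.294%. On the RPKM scale, S100a11, S100a10, S100a6, and S100a14 were the 4 highest members in both keratinocyte groups, and S100a10, S100a11, and S100a4 the 3 highest in all groups of T cells. Between keratinocytes alone and activated T cells, 7 of the 10 members were higher in keratinocytes by edgeR's quasi-likelihood test with an adjusted p (Benjamini-Hochberg) under 0.05, and 0 were lower. Among all 13394 genes tested 22.5% were higher. The median log2 fold change of the members was 3.74, beside 0.14 for all genes tested, which turned to -0.02 when the libraries were scaled by size only. In bulk samples, fewer cells of a type and less RNA per cell cannot be told apart.

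**Figure D1:**
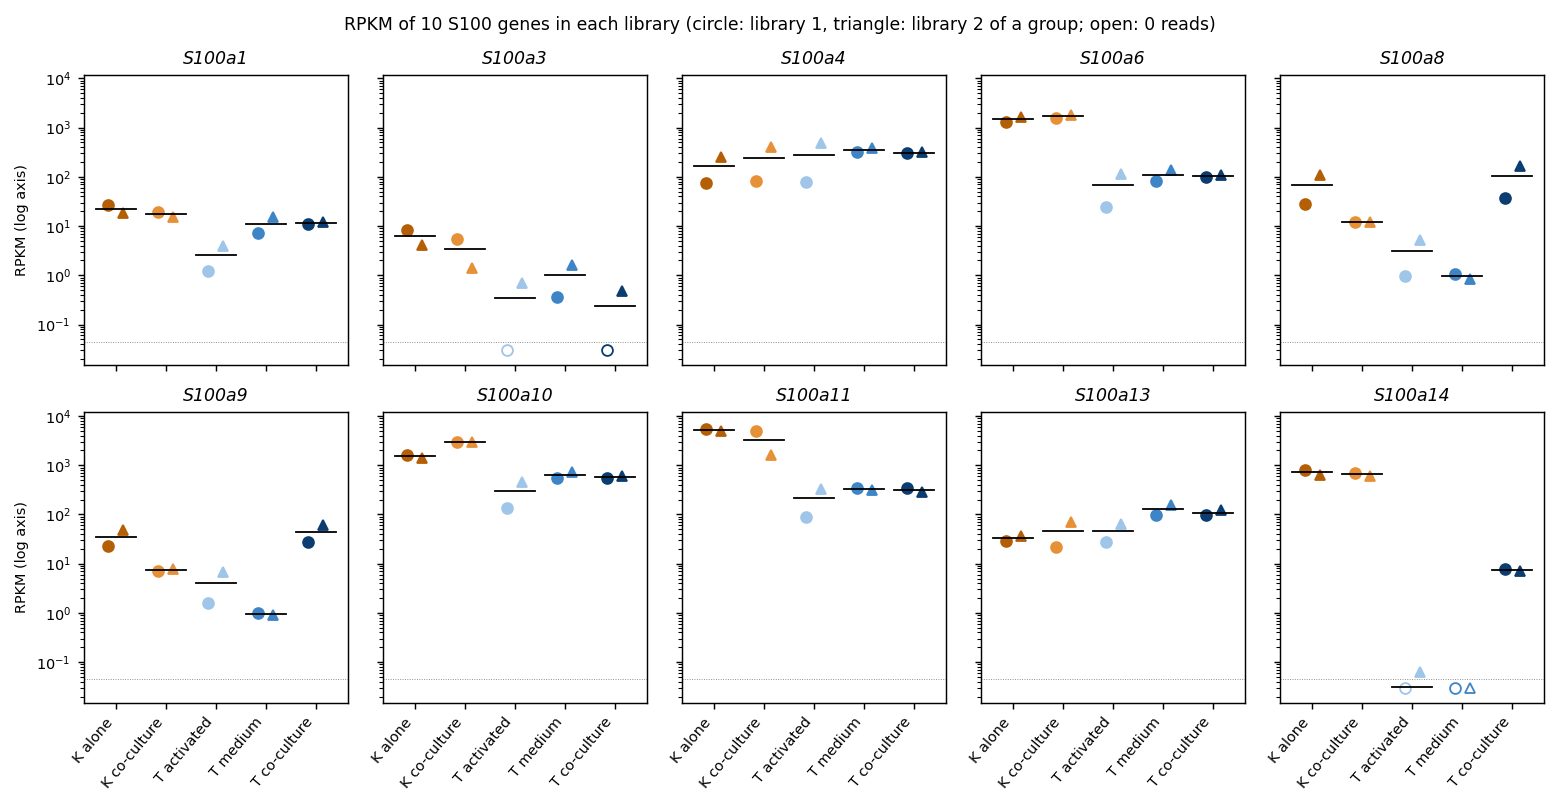
RPKM of each S100 gene (log axis) in every library, with keratinocytes (K) in orange and T cells (T) in blue. Horizontal bars are the means of the 2 libraries of a group, and open symbols under the dotted line are libraries with 0 reads. S100a8 and S100a9 are the members with their highest mean in co-cultured T cells, S100a14 is close to absent from T cells without keratinocytes, and S100a4 differs more between libraries than between groups.

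The annexin partners are described first. S100a11 reached 5381 and 4950.2 RPKM in keratinocytes alone, 4852 and 1622 in co-cultured keratinocytes, 90.9 and 337 in activated T cells, 340.1 and 315 in T cells in mixed medium, and 349 and 288 in co-cultured T cells. All keratinocyte libraries were above all T cell libraries, and the second library of co-cultured keratinocytes stood far below the other 3. The log2 fold change between keratinocytes alone and activated T cells was 4.71 ± 0.73 (SE, adjusted p = 0.00178, edgeR). Only 41.2% of its reads mapped uniquely, so that reads may be shared with copies elsewhere, but with unique reads alone the log2 fold change was 4.47 (adjusted p = 0.00202). For its partner Anxa1, keratinocytes alone gave 4944 and 3179 RPKM, and activated T cells gave 0.462 and 3.19 RPKM.

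S100a10 reached 1621 and 1436 RPKM in keratinocytes alone and 2915 and 2975 RPKM in co-cultured keratinocytes. The groups did not overlap, and the level was higher in the co-culture by 1.80 fold between the first and by 2.07 fold between the second libraries. In T cells S100a10 reached 137 and 467 RPKM after activation, 560.2 and 729.9 RPKM in mixed medium, and 556 and 600.1 RPKM upon co-culture, and was the highest member in each of these groups. Keratinocytes alone were higher than activated T cells by 2.45 ± 0.57 on the log2 scale (adjusted p = 0.0111, edgeR). For Anxa2, which codes for its partner, keratinocytes alone gave 2149 and 2042 RPKM, and co-cultured ones gave 2087 and 1651 RPKM. For Ahnak, whose product is a large scaffold protein bound by this complex, the values were 287 and 167 RPKM without T cells and 68.2 and 5.92 RPKM with them (log2 fold change -2.59 ± 1.14, adjusted p = 0.658, edgeR).

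S100a6, which codes for calcyclin, a protein of dividing cells, reached 1323 and 1608 RPKM in keratinocytes alone and 1576 and 1799.8 RPKM in co-culture, and 24.7 to 139 RPKM in the 6 T cell libraries. All keratinocyte libraries were above all T cell libraries, and the keratinocyte groups overlapped. The log2 fold change between keratinocytes alone and activated T cells was 4.51 ± 0.75 (adjusted p = 0.00258, edgeR).

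S100a14, an epithelial member, reached 812 and 628 RPKM in keratinocytes alone and 706 and 597 RPKM in co-cultured keratinocytes. Activated T cells gave 0 and 0.0637 RPKM, the latter from 1 read, T cells in mixed medium gave 0 reads in both libraries, and co-cultured T cells gave 7.89 and 7.20 RPKM. Against the 1 read in activated T cells, the 28465 reads in keratinocytes alone amount to a ratio of 24675 (95% counting interval 4428 to 974633) after scaling to library size, and the 242 reads of the co-cultured T cells to a ratio of 257 (45.7 to 10197). Over a floor of 3 reads per library, co-cultured T cells were at least 44.7-fold higher than T cells in mixed medium. The level in co-cultured T cells was 1.16% of that in co-cultured keratinocytes. The neighbouring S100a16 behaved alike, with 462 to 618 RPKM in the keratinocyte libraries, 0.110 to 0.430 RPKM in T cells without keratinocytes, and 6.98 and 4.33 RPKM in co-cultured T cells, and together with Krt6a it had the profile most like that of S100a14 (Pearson r 0.998 for both, log2(RPKM + 1), 10 libraries of 2 cell types).

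S100a8 and S100a9, the subunits of calprotectin, were the only members with their highest mean in co-cultured T cells. S100a8 reached 27.9 and 110.1 RPKM in keratinocytes alone, 12.05 and 12.3 in co-cultured keratinocytes, 0.979 and 5.14 in activated T cells, 1.07 and 0.835 in T cells in mixed medium, and 37.0 and 169.8 in co-cultured T cells. S100a9 reached 23.1 and 47.3 RPKM in keratinocytes alone, 7.18 and 7.90 in co-cultured keratinocytes, 1.60 and 6.65 in activated T cells, 0.992 and 0.888 in T cells in mixed medium, and 28.2 and 60.0 in co-cultured T cells. For both genes the co-cultured T cells overlapped with keratinocytes alone, and did not overlap with any other group. The RPKM of S100a8 divided by that of S100a9 was 1.21 and 2.33 in keratinocytes alone, 1.68 and 1.56 in co-cultured keratinocytes, and 1.31 and 2.83 in co-cultured T cells, and 0.614 to 1.07 in the other T cells.

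Upon co-culture of keratinocytes, S100a8 was 2.31 fold lower between the first and 8.91 fold lower between the second libraries, and S100a9 3.22 and 5.98 fold lower. The fitted log2 fold changes were -2.44 ± 0.74 for S100a8 and -2.16 ± 0.53 for S100a9, against 1.02 ± 0.36 for S100a10, all 3 with an adjusted p of 0.658 by edgeR. The unadjusted p-values were 0.0223, 0.00964, and 0.0367, respectively. Neutrophil markers were measured in these libraries too, with a sum of 35.2 and 4.40 RPKM in keratinocytes alone and of 9.89 and 2.47 RPKM in co-culture. Ltf, which epithelia also express, made up 32.0 and 0.210 RPKM of the first 2 sums. Of the 14 markers 3 were tested, and they did not move in one direction. Cxcr2 gave 3.08 and 3.93 RPKM without and 0.712 and 0.676 RPKM with T cells (log2 fold change -2.26 ± 0.47, adjusted p = 0.658, edgeR). Ltf was lower too (-1.88 ± 2.56), while Mmp9 was higher in co-culture (2.42 ± 1.21, adjusted p = 0.658, edgeR). Mpo, Elane, Prtn3, and Ctsg had 0 reads in all 4 libraries. Whether neutrophils had a part in the levels of S100a8 and S100a9 was not tested.

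Of the 10 members 0 passed the adjusted threshold by edgeR, as did 0 of all 12515 genes tested (0%). An unadjusted p under 0.05 was found for 3 members, 1 higher and 2 lower, where 3.08% of all genes were higher and 4.12% lower. DESeq2 called 186 genes and 1 member, S100a9 (-2.14, adjusted p = 0.0448), and limma on log2(RPKM + 1) called 0 members. The libraries of both groups did not overlap for 4 members, of which S100a10 was higher, like 19.8% of all genes, and S100a8, S100a9, and S100a11 were lower, like 24.3%. With 2 libraries against 2, an exact permutation test of a single gene cannot give a two-sided p below 0.333.

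**Figure D2:**
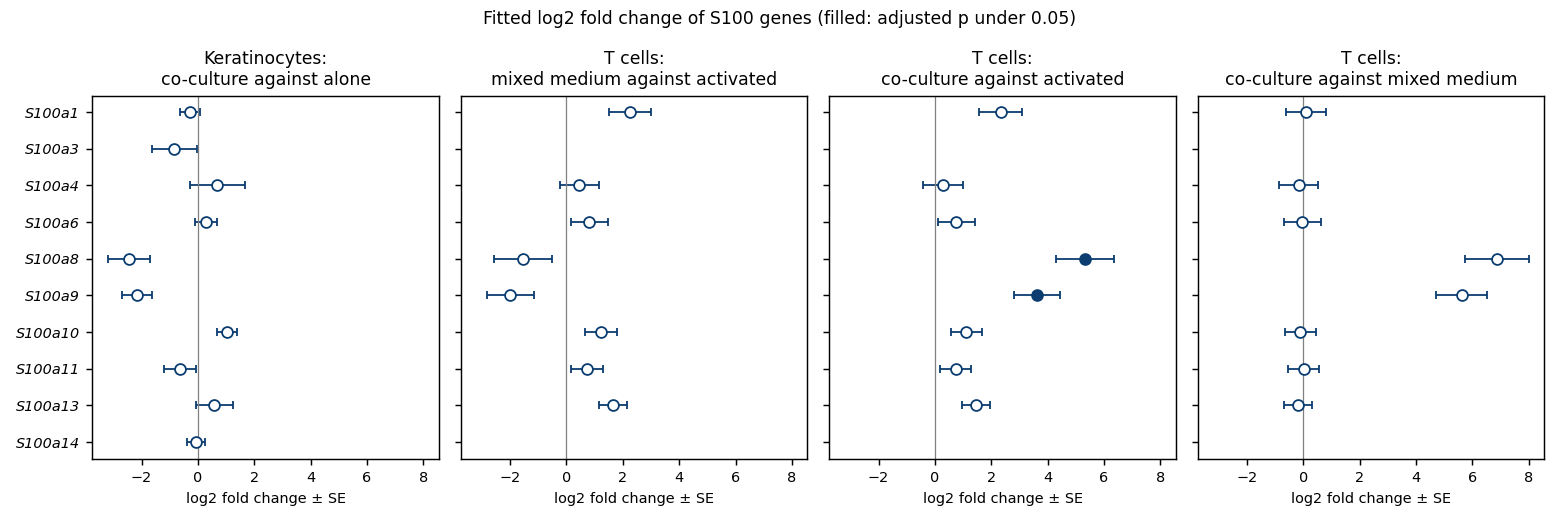
Log2 fold changes of the S100 genes with their standard errors (bars) in 4 comparisons, fitted by edgeR. Filled circles passed an adjusted p of 0.05. S100a14 is left out of the T cell panels because its fitted value depends on the prior count where a group has 0 or 1 read, and S100a3 because it did not pass the filter on low counts in T cells. S100a8 and S100a9 lie left of zero in keratinocytes and far right of zero in both comparisons of co-cultured T cells.

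In T cells the values of S100a8 and S100a9 lay in the opposite direction. Between co-cultured and activated T cells, S100a9 rose by 3.62 ± 0.80 on the log2 scale (adjusted p = 0.0289, edgeR), S100a8 by 5.32 ± 1.03 (adjusted p = 0.0192), and S100a14 too (adjusted p = 0.0145). S100a8 and S100a14 passed the filter on low counts only through the co-cultured libraries, where they were high, so the number of members that rose is not set against the 4.59% of all 11863 genes that did. Of the 9 members tested 0 fell, where 5.72% of all genes did. The calls for S100a8 and S100a9 were lost without the first library of activated T cells (adjusted p = 0.0908 and 0.103, edgeR) and without the second library of co-cultured T cells (0.0634 and 0.134), and the call for S100a14 without the first library of activated T cells (0.0593). Without the second library of activated T cells S100a4, S100a6, S100a10, and S100a11 passed too, with log2 fold changes of 2.18, 2.34, 2.33, and 2.05. With the 2 series of library names as a covariate S100a1 (adjusted p = 0.00785, edgeR), S100a10 (0.0152), and S100a13 (0.00183) rose as well. Scaling by library size moved the median of all genes from -0.01 to -0.17 and the calls from 544 higher and 678 lower to 396 and 762, and the 3 members stayed higher.

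T cells in mixed medium had the same history as the co-cultured T cells but for the keratinocytes. Against them S100a8 was higher by 6.86 ± 1.13 on the log2 scale (adjusted p = 0.0829, edgeR) and S100a9 by 5.62 ± 0.90 (adjusted p = 0.0760), which missed the threshold, as did S100a14 (adjusted p = 0.0829). Thus 0 members were called by edgeR, where 0.261% of all genes were, all of them higher. These 3 had unadjusted p-values under 0.05, as had 2.70% of all genes in this direction, but the filter alone fixed the direction of S100a8 and S100a14. All 3 passed the adjusted threshold with DESeq2, with limma on log2(RPKM + 1), without a filter, and with the series of library names as a covariate, and their adjusted p reached from 2.10e-21 to 0.365 over all alternatives. Leaving out single libraries moved the number of members called between 0 and 3. It was 3 without the first library of activated T cells, 1 (S100a9) without the second, and 2 (S100a8 and S100a9) without the first library of co-cultured T cells.

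The effect of co-culture in keratinocytes minus that in T cells, with the T cells in mixed medium as the controls, was tested in 1 fit of 8 libraries. It was -9.31 ± 1.43 on the log2 scale for S100a8 (adjusted p = 0.0470, edgeR), -7.78 ± 0.92 for S100a9 (adjusted p = 0.0187), and -10.22 for S100a14 (adjusted p = 0.00624), whose fitted value depends on the prior count. These were the 3 members called of 10, all in the lower direction, where 0.523% of 13202 genes were. The same test called S100a16 lower, and Krt6a, Krt16, and Krt17 among 20 keratinocyte markers. The call for S100a8 was lost, with adjusted p-values of 0.0513 to 0.240, when any 1 library was left out other than the first of the co-cultured T cells, and with scaling by library size (0.0530). That for S100a9 was lost without the second library of keratinocytes alone (0.0609) and without the first (0.102) or second (0.101) library of T cells in mixed medium. The controls of the T cells are shared with the comparison before, so both do not count as separate observations.

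Keratinocyte genes were measured in the co-cultured T cells. The sum of 20 keratinocyte markers was 304 and 192 RPKM there, against 25.8 and 31.6 RPKM in activated T cells and 17.2 and 11.9 RPKM in mixed medium, and 28133 to 31406 RPKM in the keratinocyte libraries. For the 17 markers with at least 5 RPKM in co-cultured keratinocytes, the level in co-cultured T cells minus that in mixed medium was -0.319 to 2.95% of the level in co-cultured keratinocytes, with a median of 0.342% and the highest value for Krt16. The other 3 markers were under 5 RPKM there. Krt15 had 0 reads in co-cultured T cells, and the difference was 10.7% for Krt1 (0.674 RPKM in co-cultured keratinocytes) and 48.1% for Krt10 (0.373 RPKM). Krt10, at 1.05 RPKM in co-cultured T cells, had both T cell libraries above both keratinocyte libraries. S100a14 lay in the range of the 17 markers with 1.16%. For S100a8 the difference was 840.1% and for S100a9 572%, as the mean level in co-cultured T cells was 8.48 fold and 5.85 fold that in co-cultured keratinocytes, and both T cell libraries were above both keratinocyte libraries. Genes outside the marker list lay alike, among them Calm4 and Krtdap, genes of the epidermis and of differentiating keratinocytes. Their means were 165 and 62.1 RPKM in co-cultured T cells, 8.94 and 12.4 RPKM in co-cultured keratinocytes, and 0 in mixed medium. Such genes were found after the values were seen and are listed under the other observations. The part of keratinocyte RNA in all these values was not tested. Markers of neutrophils, which hold much calprotectin, were measured in T cells too. The 14 neutrophil markers summed to 1.40 and 1.64 RPKM in co-cultured T cells and to 0.704 to 2.98 RPKM in the other T cells, and Csf3r, Ngp, and Camp were at 0.346 RPKM or less in co-cultured T cells. The 12 monocyte, macrophage, and dendritic markers that were listed summed to 67.9 and 80.3 RPKM in co-cultured T cells and to 75.7 and 84.6 RPKM in mixed medium. The part of any of these cells in the levels of S100a8 and S100a9 in co-cultured T cells was not tested.

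**Figure D3:**
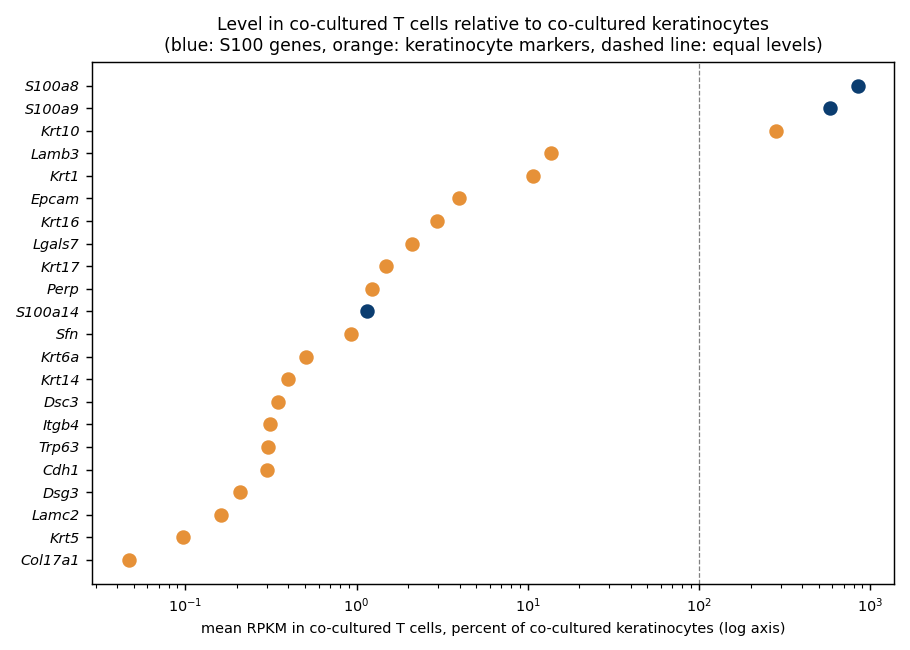
Mean RPKM in co-cultured T cells as a percentage of the mean in co-cultured keratinocytes (log axis) for 19 keratinocyte markers (orange, without Krt15 at 0) and for S100a8, S100a9, and S100a14 (blue). Each point is a ratio of 2 means of 2 libraries. S100a8 (848%) and S100a9 (585%) lie beyond equal levels, as does Krt10 (280.1%), a marker at 0.373 RPKM in co-cultured keratinocytes, and S100a14 (1.16%) lies among the markers. Calm4 and Krtdap, which are not in the marker list and not plotted, also had higher means in co-cultured T cells.

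The profiles of S100a8 and S100a9 were most like each other (Pearson r = 0.987, log2(RPKM + 1)). With the members left out, over 6984 genes that averaged at least 5 RPKM, Calm4 (r = 0.951), for a calmodulin-like protein of the epidermis, and Krtdap (0.948), for a protein of differentiating keratinocytes, came next to S100a8, and Calm4 (0.955) and 2310046K23Rik (0.944) next to S100a9. All are descriptions over 10 libraries of 2 cell types.

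S100a1 and S100a13, which lie head to head, were measured in both cell types. S100a13, whose product takes part in the release of proteins without a signal peptide, reached 29.3 and 36.7 RPKM in keratinocytes alone, 21.7 and 69.9 in co-cultured keratinocytes, 27.1 and 63.3 in activated T cells, 98.9 and 159 in mixed medium, and 97.1 and 121 in co-cultured T cells. S100a1, whose product regulates calcium handling in muscle, reached 26.4 and 18.2, 19.4 and 15.3, 1.20 and 4.00, 7.18 and 15.1, and 11.1 and 12.1 RPKM in the same order of groups. For both genes the activated T cells were below the T cells of the other 2 groups, with no overlap, as for 22.1% of all genes tested against mixed medium and 23.6% against co-culture. The same held for S100a10, which lies in the other block. The order of levels differed between S100a1 and S100a13, since S100a1 was highest in keratinocytes and S100a13 in T cells after the further day of culture. Over the 10 libraries the Pearson r of this pair was 0.030 (log2(RPKM + 1)). In mixed medium against activated T cells, the log2 fold change was 2.25 ± 0.76 for S100a1 (adjusted p = 0.113, edgeR) and 1.65 ± 0.51 for S100a13 (adjusted p = 0.0924). In co-culture against activated T cells it was 2.33 ± 0.76 (adjusted p = 0.0890) and 1.46 ± 0.51 (adjusted p = 0.105). With the series of library names as a covariate both genes passed the threshold in both comparisons, with adjusted p-values of 0.0138 and 0.00155 in mixed medium and 0.00785 and 0.00183 in co-culture (edgeR). S100a1 was higher in keratinocytes alone than in activated T cells by 3.22 ± 0.72 (adjusted p = 0.00901, edgeR), while S100a13 was not called (-0.33 ± 0.65).

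Between mixed medium and activated T cells 0 of 9 members were called by edgeR, where 6.54% of all genes were. Unadjusted p-values under 0.05 were found for S100a1, S100a13, and S100a9, 2 higher and 1 lower, where 25.0% of all genes had such a p in either direction. S100a9 was lower by 1.99 ± 0.83 on the log2 scale in mixed medium (adjusted p = 0.186, edgeR). DESeq2 called S100a1 (adjusted p = 0.0389) and S100a13 (adjusted p = 0.0172), and limma called 0 members. With the series of library names as a covariate S100a1, S100a13, and S100a10 (adjusted p = 0.0134) were called by edgeR, all higher, and without a filter on low counts these 3 and S100a9, which was lower. Without the second library of activated T cells S100a4 (adjusted p = 0.0390), S100a10 (0.0360), and S100a11 (0.0392) were called by edgeR, all higher in mixed medium. Scaling by library size moved the median of all genes from -0.01 to -0.13.

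S100a4, a gene of motile cells, differed widely between the libraries of a group. It reached 75.1 and 253 RPKM in keratinocytes alone, 82.4 and 411 in co-cultured keratinocytes, 80.5 and 481 in activated T cells, 316 and 395 in mixed medium, and 299.7 and 313 in co-cultured T cells. In 3 of the 5 groups the second library was more than 3 times as high as the first, and keratinocytes and activated T cells overlapped. Its log2 fold change was 0.69 ± 0.97 upon co-culture of keratinocytes and -0.66 ± 0.97 between keratinocytes alone and activated T cells (adjusted p = 0.804 and 0.619, edgeR). The profiles most like it over the 10 libraries were those of Gm10800 (r = 0.996) and Cd4 (0.993). For Cd4, keratinocytes alone gave 11.4 and 43.5 RPKM, co-cultured keratinocytes 15.0 and 84.5 RPKM, and activated T cells 16.8 and 102 RPKM. The 15 T cell markers, of which Trac, Trbc1, and Trbc2 were listed at 0 in all libraries, summed to 128 and 504 RPKM in keratinocytes alone and to 161 and 890.1 RPKM in co-cultured keratinocytes, while Cd8a and Cd8b1 there were at 0.107 to 2.00 RPKM. The part of this RNA in the level of S100a4 was not tested. Of the S100a4 reads 34.2% mapped uniquely, and its gene model overlaps Gm42674 on the same strand.

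**Figure D4:**
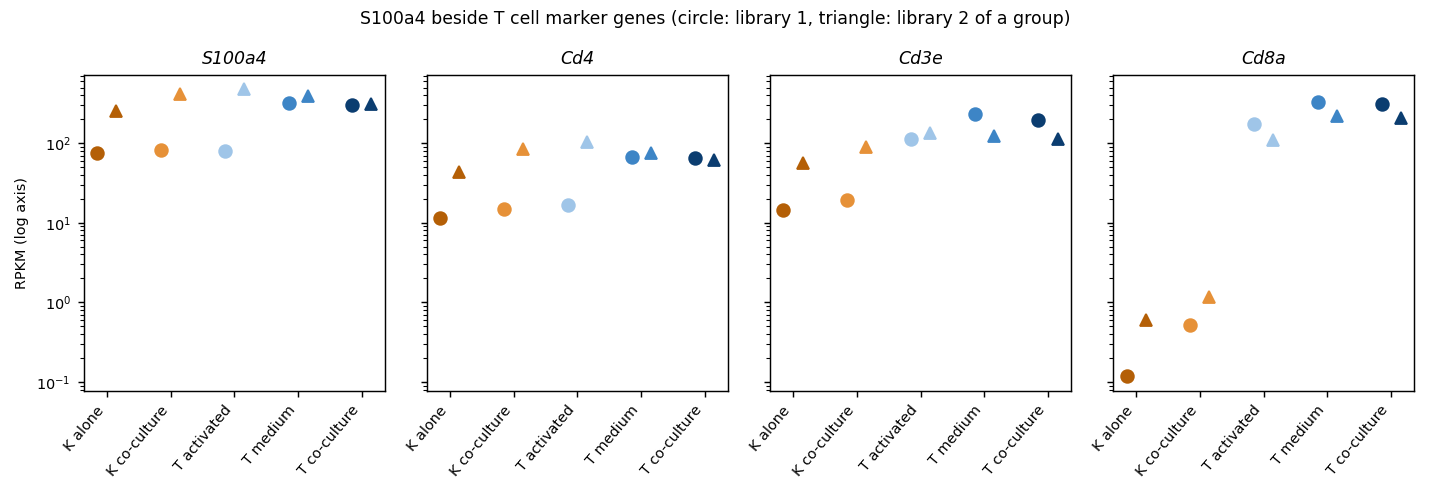
RPKM (log axis) of S100a4, Cd4, Cd3e, and Cd8a in each library, 2 per group. The first and second libraries of keratinocytes alone, co-cultured keratinocytes, and activated T cells are split for S100a4 (75.1 and 253 RPKM in keratinocytes alone) and for Cd4 (11.4 and 43.5 RPKM), whereas Cd8a is low in keratinocytes and high in all T cells.

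S100a3, known from the hair cuticle, was the lowest member in keratinocytes with 8.31 and 4.20 RPKM alone and 5.37 and 1.42 RPKM in co-culture. T cells gave 0 to 1.62 RPKM. Of its 344 reads in all libraries 23.8% mapped uniquely, and the gene overlaps S100a2 and Gm42674 on the same strand. Its difference between keratinocytes alone and activated T cells missed the threshold (4.25 ± 1.84, adjusted p = 0.102, edgeR). The calls for S100a8 (4.63 ± 1.11, adjusted p = 0.0122) and S100a9 (3.22 ± 0.80, adjusted p = 0.0143) in this comparison were lost without the second library of keratinocytes alone (0.0620 and 0.0776) and without the first library of activated T cells (0.0730 and 0.0672).

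Of the other S100 genes, S100a16 and S100a7a, a gene of inflamed skin, were measured at more than 5 RPKM. S100a7a reached 32.3 and 15.4 RPKM in keratinocytes alone, 30.7 and 9.19 RPKM in co-culture, and 0.205 RPKM or less in T cells. S100a16 was higher in co-cultured than in activated T cells (4.78 ± 0.89, adjusted p = 0.0170, edgeR). At 0.110 to 0.430 RPKM in T cells without keratinocytes, it passed the filter on low counts only through the co-cultured libraries, where it was high. The filter thus fixed the direction of this difference. Both S100a16 and S100a7a were higher in keratinocytes alone than in activated T cells. S100a2, S100a5, S100b, S100g, and S100z stayed at 1.67 RPKM or less in every library, and S100a7l2 was not analysed here.

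Among 20 partners and receptors of S100 proteins, 0 of 17 tested were called upon co-culture of keratinocytes by edgeR, DESeq2, or limma, and 3 had an unadjusted p under 0.05, where 7.20% of all genes had one in either direction. By edgeR without the first library of co-cultured keratinocytes, Ahnak and Myh9 were called lower, in a setting that called far more genes lower than the others did. The receptors Ager and Tlr4 were low. Ager, which codes for RAGE, was listed at 0 in keratinocytes and at 0.484 RPKM or less in T cells, and for Tlr4 keratinocytes gave 5.30 and 2.34 RPKM without and 3.04 and 1.05 RPKM with T cells, and T cells 0.218 to 0.582 RPKM. In T cells, Cacybp, for a protein that binds S100A6 and other S100 proteins, fell by 2.12 ± 0.32 on the log2 scale in mixed medium (adjusted p = 0.0155, edgeR) and by 2.65 ± 0.32 upon co-culture (adjusted p = 0.00597) against activated T cells. Bsg, for a surface receptor of S100A9, fell by 1.39 ± 0.29 (adjusted p = 0.0337) and 1.46 ± 0.29 (adjusted p = 0.0207). Bsg was at 283 and 308 RPKM in activated T cells, 95.7 and 107 in mixed medium, and 100.2 and 87.9 in co-cultured T cells, with no overlap between the first group and the others. Between co-cultured and activated T cells Alcam fell too, so that 3 of 17 partners were lower, like 5.72% of all genes, and 0 higher. The call for Bsg in mixed medium was lost without any 1 of the 4 libraries compared, and that for Cacybp without the first library of activated T cells or either library of mixed medium. In co-culture the calls for Bsg were likewise lost without any 1 of the 4 libraries compared, and those for Alcam without the first library of activated T cells or either co-cultured library, whereas Cacybp kept its call. Between keratinocytes alone and activated T cells 8 of 19 tested were called, where 35.5% of all genes were. Anxa1, Anxa2, Ahnak, Tlr4, Il1a, and Dysf were higher, and Cacybp and Sugt1 lower.

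The S100-fused-type genes code for large skin proteins with an S100 domain at one end. For Rptn, the gene of repetin, keratinocytes gave 6.10 and 12.3 RPKM without and 0.619 and 0 RPKM with T cells, and T cells gave 0 without and 4.70 and 0.852 RPKM with keratinocytes. For Tchh, the gene of trichohyalin, keratinocytes gave 7.01 and 6.71 RPKM without and 0.802 and 0.281 RPKM with T cells. All 5 that were tested in keratinocytes, Flg, Hrnr, Rptn, Tchh, and Tchhl1, had an unadjusted p under 0.05 and a lower level in co-culture, like 4.12% of all genes. Their median log2 fold change was -4.89 beside 0.02 for all genes, and 0 passed the adjusted threshold by edgeR or limma. DESeq2 called 3 of them lower, Flg, Hrnr, and Tchh, where it called 98 of 12515 genes lower. In the second library of co-cultured keratinocytes the 6 genes of this list summed to 0.281 RPKM, the level of Tchh alone. The others could thus pass the filter on low counts only with the reads of keratinocytes alone. The filter favoured the lower direction in these counts, the median, and the calls. With at least 10 reads in every library, 1 of these genes was tested and 0 were called. The genes tested were also called lower by edgeR without the first library of co-cultured keratinocytes. That setting called far more genes lower than the other settings did in keratinocytes.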

How the data were processed

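RNA-seq libraries of 10 samples were taken from the labels as 5 groups of 2. Per the paper's methods, a HiSeq2500 gave single-end reads of NEBnext Ultra II libraries, and the authors' mapping ran in the CLC Genomics Workbench with default RNA-Seq parameters against GRCm38. The annotation release and the strand setting of the counting are not given in the sources used here. The authors deposited raw counts of exon reads per gene, the number of these that mapped uniquely, and the gene model. They also deposited RPKM, which scale these reads to exon length and mapped reads. Columns of per-sample values left unused numbered 0 among those read.

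Here, edgeR 4.0.16 (R 4.3.3) was run on the exon reads. Low genes were removed by filterByExpr, libraries were scaled by TMM, and p-values from glmQLFit and glmQLFTest were adjusted after Benjamini-Hochberg over all genes tested. A standard error is the log2 fold change divided by the square root of F. One fit held the 4 keratinocyte libraries and another the 6 of T cells, all 10 were used for keratinocytes against T cells, and 8 for the difference of effects. Levels are RPKM. Alternatives were each library left out in turn, a replicate block, the 2 series of library names as a covariate, other sets of libraries, uniquely mapped reads, scaling by library size, a count minimum of 10 in every library or none, DESeq2 1.42.0, and limma 3.58.1 with pseudocounts of 0.1 or 1 on the log2 scale. Scripts were tested on simulated data.

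Members and lists were chosen with earlier results of these data known. Genes named besides the members are every other S100 gene listed, Anxa1, Anxa2, Ahnak, Ager, and Tlr4, up to 5 further partners with an adjusted p under 0.05, defining cell markers, and the 2 genes most like each member. The S100-fused-type genes, and genes that a count or a closing paragraph turns on, were named after their values were seen. Tables and figures were made with pandas 2.3.3, scipy 1.17.1, numpy 2.4.6, and matplotlib 3.10.9 in Python 3.11.15.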

Additional observations from a re-analysis of the deposited data

Results flagged for a closer look

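The effect of co-culture differed between keratinocytes and T cells by the test of the difference itself for 3 members. It was -9.31 on the log2 scale for S100a8 (adjusted p = 0.0470, edgeR), -7.78 for S100a9 (adjusted p = 0.0187), and -10.22 for S100a14 (adjusted p = 0.00624). The size for S100a14 depends on the prior count, since T cells in mixed medium had 0 reads of it. Its level in co-cultured T cells was 1.16% of that in co-cultured keratinocytes. The same test called S100a16 and the keratinocyte markers Krt6a, Krt16, and Krt17 lower, and the part of keratinocyte RNA was not tested. The calls for S100a8 and S100a9 depended on single libraries, as given above, and that for S100a8 was lost with scaling by library size (0.0530, edgeR).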

How the results depend on the processing

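Of 230 values for members that had been called, 210 kept their direction and call under the alternatives and 20 kept the direction but lost the call, and 0 reversed. Members that had not been called kept the direction and side of the threshold in 481 values, passed it in 56, and reversed in 28. Depth limits S100a14 and S100a3 in T cells, where 0 to a few reads were counted, and low unique shares limit S100a4, S100a11, and S100a3. With 2 libraries per group, a left-out library leaves 1 that is assumed to vary like the others. The cause of the changes listed here was not tested, except that the filter of at least 10 reads in every library removes genes with fewer in any library. In the fits with T cells it removed S100a14, but also S100a8 and S100a9, which had reads in every group. Calls lost because a member was removed by a filter are not among the 230 values. That filter gave 0 members in the comparison of co-cultured with activated T cells, 4 between keratinocytes alone and activated T cells, 0 genes between co-culture and mixed medium, and 0 members and 0 genes for the difference of effects.

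DESeq2 called 1 member and 186 genes in keratinocytes, 2 and 1947 in mixed medium against activated T cells, 5 and 2368 in co-cultured against activated T cells, 3 and 87 in co-culture against mixed medium, and 353 genes for the difference of effects. Without a filter these were 11 genes in keratinocytes, 4 members and 1945 genes, 6 and 2425, 3 and 141, and 205 genes. For co-culture against mixed medium in T cells, limma gave 3 members and 99 (RPKM + 1) or 107 (RPKM + 0.1) genes, all 10 libraries in 1 fit gave 2 members and 83 genes, and the 2 groups alone gave 2 members. All 10 libraries gave 4 genes in keratinocytes.

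Replicate numbers are shared between keratinocytes alone and in co-culture and with activated T cells, but nothing says what they stand for. Deviations of same-numbered keratinocyte libraries were correlated over 12515 genes (r = 0.558), and those of keratinocytes alone and activated T cells less so (0.243). With a replicate block 2 genes and 0 members were called in keratinocytes, and S100a3 was called between keratinocytes alone and activated T cells (adjusted p = 0.0498, edgeR). T cell libraries of the same series of library names were correlated too (0.262 to 0.398), and with the series as a covariate 3 members and 3089 genes were called in mixed medium against activated T cells, 6 and 3662 in co-culture against activated T cells, and 3 and 65 in co-culture against mixed medium.

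Leaving out 1 library at a time gave 0 to 1164 genes in keratinocytes, 0 to 3 members and 24 to 1067 genes in mixed medium against activated T cells, 0 to 7 and 266 to 1093 in co-culture against activated T cells, 0 to 3 and 16 to 52 in co-culture against mixed medium, 2394 to 4943 genes between keratinocytes alone and activated T cells, and 1 to 3 members and 21 to 105 genes for the difference of effects. The 1164 genes were called without the first library of co-cultured keratinocytes.

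Log2 fold changes of members that had not been called and crossed zero ranged from -1.02 to 1.88 (S100a4), -0.62 to 1.21 (S100a13), and -0.23 to 0.083 (S100a14) in keratinocytes, from -0.31 to 2.36 (S100a4), -2.31 to 0.15 (S100a8), and -3.15 to 0 (S100a14) in mixed medium against activated T cells, and from -0.49 to 2.18 (S100a4) in co-culture against activated T cells. In co-culture against mixed medium they ranged from -0.42 to 0.81 (S100a1), -0.41 to 0.077 (S100a4), -0.44 to 0.46 (S100a6), -0.37 to 0.17 (S100a10), -0.040 to 0.043 (S100a11), and -0.57 to 0.27 (S100a13), and between keratinocytes alone and activated T cells from -1.91 to 1.15 (S100a4) and -0.92 to 0.39 (S100a13). In co-culture against mixed medium S100a6 gave 0.055 with the series as a covariate, and S100a11 gave -0.051 with library size, -0.0053 without a filter, -0.0076 with unique reads, and -0.045 and -0.046 with limma.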

Other observations

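Other genes shared the profile of S100a8 over the groups. A rule set after the values had been seen asked for 5 or more RPKM in both libraries of co-cultured T cells, less than 1 in 5 of that in every other T cell library, and both co-cultured T cell libraries above both libraries of co-cultured keratinocytes. It was met by 18 genes, S100a8 among them, whereas S100a9 missed it with 6.65 RPKM in the second library of activated T cells. They included Lce1a1, Lce1a2, Lce1f, Lce3b, Lce3c, Lce3d, Lce3e, and Lce3f, for late proteins of the cornified envelope, Sprr2e and Sprr2i, for small proline-rich proteins of the same structure, Klk6, Klk7, and Klk9, for proteases of which the second takes part in the shedding of the skin surface, and Calm4, Krtdap, Cst6, and 2310046K23Rik.

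Calm4 was at 146 and 183 RPKM in co-cultured T cells, at 9.54 and 8.33 RPKM in co-cultured keratinocytes, and at 63.4 and 63.0 RPKM in keratinocytes alone. Lce3c was at 55.5 and 94.98 RPKM in co-cultured T cells, at 3.71 and 0.962 RPKM in co-cultured keratinocytes, and at 28.6 and 22.8 RPKM in keratinocytes alone. Both had a mean of 0 in mixed medium. On chromosome 3, 12 of the 18 lay between S100a1 and S100a10, an interval of 80 genes. All 18 had a higher mean in keratinocytes alone than in co-cultured keratinocytes. The rule did not use keratinocytes alone, but its limit on co-cultured keratinocytes favours this order.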
